A study of Homo sapiens with 12 samples.

Results

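The 10 genes of cytokine signalling described here were followed by every probe set that the HG-U133 Plus 2.0 annotation gives them alone. They are the ligand OSM, the kinase JAK2, the transcription factors STAT3, STAT5A and STAT5B, the inhibitors SOCS1, SOCS2, SOCS3 and CISH, and the target kinase PIM1. These 10 genes have 30 of the 54613 probe sets tested, which read 19775 genes in all. The cells came from U937, an established human line of monocyte-like lymphoma cells. All groups carried the same TRIPZ-shRNAmir cassette, from which doxycycline switches on a hairpin RNA directed at the zinc finger gene ZXDC. The 4 groups of 3 arrays were vehicle (0.1% DMSO), vehicle with doxycycline, PMA at 100 nM, and PMA with doxycycline. PMA, a phorbol ester and activator of protein kinase C, makes these cells adopt macrophage features. The doxycycline dose was 0.5 µg/mL, renewed each day over 4 days, and PMA or DMSO followed after the first 2 days and lasted 3 days, as the labels state it. Every group came from cells with the same hairpin, and no group had doxycycline with another hairpin, so the actions of doxycycline itself and of the hairpin cannot be told apart. The labels call the arrays of a group biological replicates 1 to 3 and do not say whether they were separate cultures. The p-values therefore measure the spread between these arrays only.

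In JAK-STAT signalling a cytokine such as oncostatin M, the product of OSM, joins receptor chains whose bound JAK kinases then phosphorylate STAT proteins. Phosphorylated STATs enter the nucleus and switch on target genes, among them the SOCS genes and CISH, whose SH2 domain proteins bind the receptors or kinases and shut the signal down. This negative feedback sets how long monocytes and macrophages respond to interleukins, interferons and growth factors.

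All values are log2 signals made by RMA, and the median over all probe sets was between 5.15 and 5.22 on every array. ZXDC was lower with doxycycline at all 6 of its probe sets in both agents, by log2 differences of -0.71 to -0.15. Averaged over the agents, its probe set of highest mean (225964_at) had a difference of -0.50 (SE 0.11), with an unadjusted p of 0.00058 and an adjusted p of 0.639 by limma. With the replicate number as a block within each agent the SE was 0.09, the unadjusted p 0.000113 and the adjusted p 0.0907 by limma. The excess of ACTB signal at the transcript's 3′ end over its 5′ end, which grows as RNA degrades, was 1.99 to 2.72 (log2) on the 4 arrays carrying number 1 and 0.71 to 1.64 on the other 8. The same measure for GAPDH did not separate them, at 0.17 to 0.25 and 0.12 to 0.25. Of 10 myeloid and macrophage marker genes measured, among them SPI1, CEBPA, ITGAM and CD14, 9 had a group mean above the overall median of 5.19. Their mean over the list was 7.21 to 7.39 on arrays without PMA and 8.19 to 8.87 on arrays with it, so the marker level moved with the PMA changes of the members below, and its part in them was not tested. Lists for T and NK, B, erythroid, epithelial, fibroblast and endothelial cells held 28 measured genes, and their list means lay between 4.13 and 5.84. The B cell list lay at 5.51 to 5.74 without PMA and 4.98 to 5.53 with it, and the T and NK list at 4.82 to 5.01 and 5.02 to 5.18. Of these genes 15 had a group mean above the overall median, and RMA values carry no detection call.

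PMA raised PIM1 at its single probe set and SOCS3, OSM and STAT3 at part of theirs, and lowered SOCS2 and STAT5B at part of theirs. Without doxycycline the called differences ran from 3.21 (log2) for SOCS3 to -1.42 for SOCS2. At an adjusted p under 0.05 by limma, 5 of the 30 probe sets rose and 3 fell without doxycycline, which is 26.7%, beside a background of 23.6% over all probe sets (10.4% higher and 13.2% lower). With doxycycline 6 rose and 3 fell, 30.0%, beside a background of 24.5% (10.7% higher and 13.8% lower), and STAT5A was then among the genes that fell. At an unadjusted p under 0.05 there were 14 and 16 of 30, 46.7% and 53.3%, beside 32.2% and 32.8% of all. PMA and vehicle arrays did not overlap at 12 of 30 probe sets without doxycycline and at 14 of 30 with it, 40.0% and 46.7%, beside 36.1% and 36.3% of all probe sets. The members' share was near the background at the adjusted threshold and above it at the unadjusted one. Probe sets of the same gene are not independent, and the count with 1 probe set per gene is given below. Without the arrays carrying number 1 the members' share at the adjusted threshold was 36.7% and 50.0%, beside 26.6% of all in each comparison. The median difference of the 30 was 0.08 without doxycycline and 0.18 with it, against 0.02 and 0 over all probe sets. These are bulk samples, in which fewer cells of a type and less RNA per cell cannot be told apart.

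**Figure D1:**
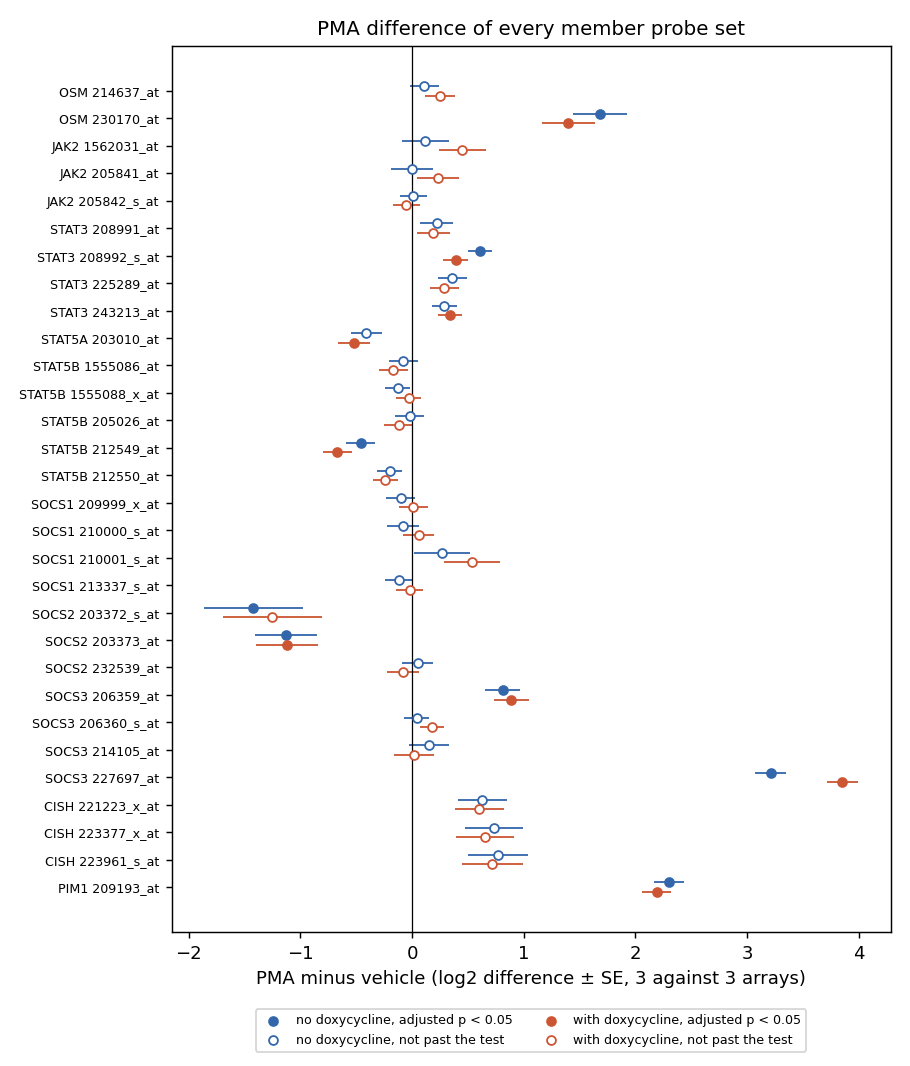
Log2 difference between PMA and vehicle arrays for each of the 30 probe sets (horizontal axis, bars ± SE, 3 against 3 arrays), without and with doxycycline; filled points passed limma's test at an adjusted p under 0.05. SOCS3 227697_at lies farthest to the right at 3.21 and 3.85, PIM1 follows at 2.30 and 2.19, and 203373_at and 203372_s_at of SOCS2 lie farthest to the left.

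SOCS3, an SH2 domain inhibitor that binds gp130-type receptors and JAKs, gave the largest rise. Its probe set 227697_at read 3.45, 3.17 and 3.59 in vehicle and 6.89, 6.55 and 6.40 in PMA (log2, replicates 1 to 3). With doxycycline it read 3.42, 3.41 and 3.59 in vehicle and 7.43, 7.24 and 7.30 in PMA. Every PMA array lay above every vehicle array, and the PMA arrays with doxycycline lay above those without. The means were 3.40 ± 0.21 and 6.61 ± 0.25 (SD, n = 3) without doxycycline, a rise of 3.21 (SE 0.14) or 9.27-fold, with a limma adjusted p of 2.89e-09. With doxycycline they were 3.47 ± 0.10 and 7.32 ± 0.10, a rise of 3.85 (SE 0.14) or 14.4-fold, with an adjusted p of 5.32e-10. The vehicle mean lay at percentile 19.3 of all probe sets, so the start of the rise is a dim signal and its size is less sure than its direction. Signals increased in the order vehicle, vehicle with doxycycline, PMA, PMA with doxycycline, and the first pair differed by less than its spread.

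The 4 probe sets of SOCS3 did not move alike. A second one, 206359_at, read 3.96, 4.16 and 4.24 in vehicle and 4.61, 4.94 and 5.24 in PMA, and rose by 0.81 (SE 0.16, adjusted p = 0.00166 by limma). The same probe set rose by 0.89 (SE 0.16, adjusted p = 0.00078) with doxycycline, and its group means all lay below the overall median. The one with the highest mean, 206360_s_at, read 5.75, 5.80 and 5.87 in vehicle and 5.83, 5.68 and 6.01 in PMA, with a difference of 0.04 (SE 0.11). The last, 214105_at, differed by 0.15 (SE 0.18) without doxycycline and by 0.02 (SE 0.18) with it. A summary that takes the probe set of highest mean would thus show no rise of SOCS3, and one on 227697_at the largest of the group. Which transcripts each of these probe sets reads was not analysed here.

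**Figure D2:**
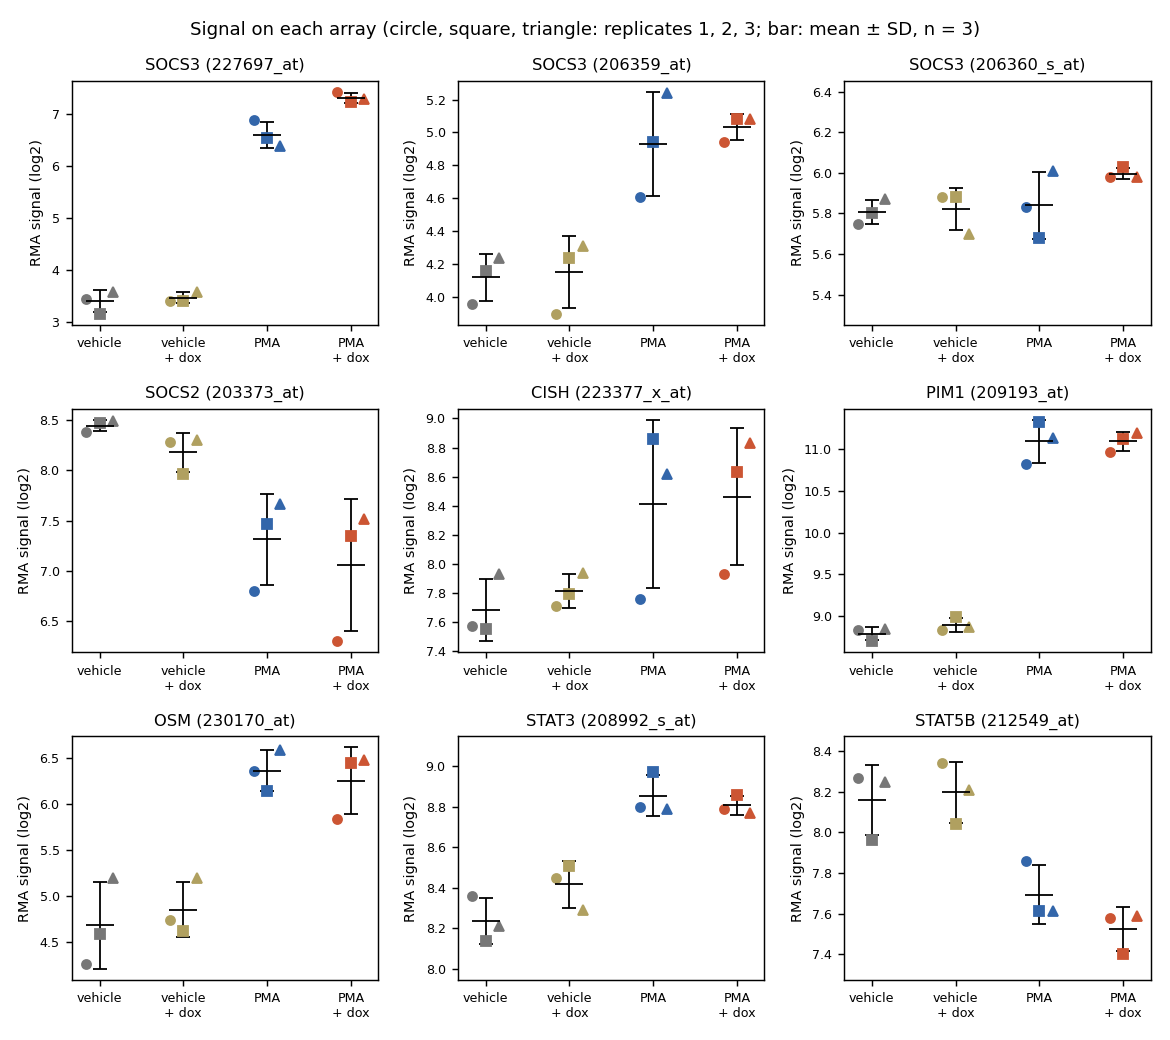
RMA signal (log2, vertical axis) on each array for 9 probe sets in the 4 groups; circles, squares and triangles are replicates 1, 2 and 3, and bars are the mean ± SD of 3 arrays. SOCS3 227697_at climbs from 3.40 to 6.61 with PMA while SOCS3 206360_s_at stays between 5.68 and 6.03, and replicate 1 of both PMA groups lies lowest for SOCS2 203373_at and CISH 223377_x_at.

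SOCS2, the inhibitor best known for damping growth hormone and STAT5 signals, went the other way. Its probe set 203373_at read 8.38, 8.47 and 8.49 in vehicle and 6.80, 7.47 and 7.67 in PMA. With doxycycline the values were 8.28, 7.96 and 8.30 in vehicle and 6.30, 7.35 and 7.52 in PMA. All PMA arrays lay below all vehicle arrays, and replicate 1 was the lowest in both PMA groups. It fell by 1.13 (SE 0.28, adjusted p = 0.00725 by limma) without doxycycline and by 1.12 (SE 0.28, adjusted p = 0.00725) with it. Without the arrays carrying number 1, which stand apart in the ACTB measure though not in that of GAPDH, the falls were smaller, at differences of -0.91 and -0.70, with adjusted p of 0.000575 and 0.0035. The probe set 203372_s_at read 5.74, 6.08 and 6.32 in vehicle and 3.41, 5.13 and 5.32 in PMA, a fall of 1.42 (SE 0.44, adjusted p = 0.0309). Without PMA replicate 1 its difference was -0.81 with an adjusted p of 0.109, and without vehicle replicate 2 or vehicle replicate 3 the adjusted p was 0.0823 and 0.108. With doxycycline its difference of -1.25 (SE 0.44) missed the threshold at an adjusted p of 0.0552, and passed without vehicle with doxycycline replicate 1, PMA replicate 1, PMA replicate 3 or PMA with doxycycline replicate 3. PMA replicates 1 and 3 lie outside that comparison, so leaving them out kept the difference at -1.25. They enter its test only through the spread shared by all groups. Both differences passed when number 1 was left out of every group, at -0.97 (adjusted p = 0.000572) and -1.05 (adjusted p = 0.000284). The remaining probe set, 232539_at, was dim at 2.96 ± 0.16 in vehicle and differed by 0.05 (SE 0.14).

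CISH, the founding member of the family and a classical STAT5 target, had higher mean signals under PMA at all 3 probe sets, none past the test. The probe set 223377_x_at read 7.57, 7.55 and 7.93 in vehicle and 7.76, 8.86 and 8.62 in PMA. With doxycycline it read 7.71, 7.79 and 7.94 in vehicle and 7.93, 8.63 and 8.83 in PMA. Replicates 2 and 3 of both PMA groups were high, while replicate 1 lay within or next to the vehicle range. The difference was 0.73 (SE 0.26, adjusted p = 0.0611 by limma) without doxycycline and 0.65 (SE 0.26, adjusted p = 0.0926) with it. The probe sets 221223_x_at and 223961_s_at gave 0.63 (adjusted p = 0.0521) and 0.77 (adjusted p = 0.0531) without doxycycline, and 0.60 (adjusted p = 0.0613) and 0.72 (adjusted p = 0.0691) with it. Without the arrays carrying number 1 all 3 probe sets passed in both comparisons, beside 26.6% of all probe sets, with 223377_x_at at 1.00 (adjusted p = 0.000481) and 0.86 (adjusted p = 0.00131). All 3 also passed in both comparisons when only PMA replicate 1 or only PMA with doxycycline replicate 1 was left out, and without PMA replicate 1 the difference of 223377_x_at was 1.05 (adjusted p = 0.00284). Without PMA replicate 1 the differences with doxycycline stayed at 0.60, 0.65 and 0.72, since an array outside a comparison enters only the shared spread. The same holds for PMA with doxycycline replicate 1 in the comparison without doxycycline. Left out singly, PMA with doxycycline replicate 3 and PMA replicate 2 also brought 221223_x_at past the test, the first without doxycycline (adjusted p = 0.0466) and the second with it (adjusted p = 0.0481). Each of these arrays also lies outside the comparison named. The 3′ minus 5′ signal of ACTB was 2.39 and 2.72 on replicate 1 of PMA and of PMA with doxycycline, against 1.01 to 1.64 on their other arrays, and its part in these values was not tested. The letter x in a probe set name marks probes that can also match other transcripts.

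The RefSeq promoter table (GRCh38.p14) held 14 windows for 8 of the 10 members, all but OSM and SOCS2. The 250 bases before each start were searched on both strands for the STAT motif TTCNNNGAA, which is its own reverse complement, and for the AP-1 motif TGANTCA, which also reads the same on both strands and is bound by factors downstream of PMA. Of all 35097 such windows 6.56% held the STAT motif and 6.57% the AP-1 motif. Only the CISH window held the STAT motif among the members, 4 times, at 241, 230, 129 and 112 bases before the start, and 5 of the 35097 windows, 0.0142%, held at least 4. None of the 14 windows held the AP-1 motif, so no matches of the motifs overlapped. The CISH window (chr3:50611775-50612024, minus strand) is shown with the matches in capitals because it stands out in this search. That of PIM1 (chr6:37169902-37170151, plus strand) is shown beside it as a member that rose with PMA and has no match in these letters. A match is a description of the sequence and not a measured binding site.
CISH: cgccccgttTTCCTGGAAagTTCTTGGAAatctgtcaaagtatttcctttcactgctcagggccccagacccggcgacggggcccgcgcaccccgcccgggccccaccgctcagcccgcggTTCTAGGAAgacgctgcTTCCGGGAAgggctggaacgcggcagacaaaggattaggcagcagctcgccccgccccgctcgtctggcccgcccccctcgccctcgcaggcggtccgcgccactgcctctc
PIM1: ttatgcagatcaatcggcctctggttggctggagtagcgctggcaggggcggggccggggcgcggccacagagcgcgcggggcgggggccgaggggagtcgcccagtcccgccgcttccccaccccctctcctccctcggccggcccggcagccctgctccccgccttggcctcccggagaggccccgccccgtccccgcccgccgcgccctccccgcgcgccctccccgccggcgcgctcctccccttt

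SOCS1, the inhibitor that acts directly on JAK kinases downstream of interferon receptors, did not pass the test at any of its 4 probe sets in either PMA comparison. Its probe set of highest mean, 213337_s_at, read 5.43, 5.48 and 5.71 in vehicle, 5.60, 5.40 and 5.37 in vehicle with doxycycline, 5.41, 5.38 and 5.47 in PMA, and 5.27, 5.39 and 5.64 in PMA with doxycycline. These ranges overlapped, and the PMA differences were -0.12 (SE 0.12) and -0.02 (SE 0.12). The probe set 210001_s_at differed by 0.27 (SE 0.25) without doxycycline and by 0.54 (SE 0.25, adjusted p = 0.155 by limma) with it. Its replicate 1 in PMA with doxycycline read 4.63 beside 5.65 and 5.86, and without that array the difference was 0.92 with an adjusted p of 0.00135. The other probe sets, 209999_x_at and 210000_s_at, had all group means below the overall median.

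PIM1, a serine/threonine kinase whose gene is a textbook STAT3 and STAT5 target and which promotes survival, rose at its single probe set. It read 8.83, 8.70 and 8.84 in vehicle and 10.82, 11.33 and 11.14 in PMA. With doxycycline it read 8.83, 8.99 and 8.87 in vehicle and 10.97, 11.12 and 11.19 in PMA. The PMA arrays lay far above the vehicle arrays and the doxycycline groups overlapped within each agent. The rise was 2.30 (SE 0.13, adjusted p = 2.74e-08 by limma) or 4.93-fold without doxycycline, and 2.19 (SE 0.13, adjusted p = 3.85e-08) or 4.57-fold with it. It passed in each of the 12 fits that left out 1 array, in both comparisons.

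OSM encodes oncostatin M, a gp130 cytokine made by activated monocytes and macrophages. Its probe set 230170_at read 4.26, 4.58 and 5.19 in vehicle and 6.36, 6.14 and 6.58 in PMA. With doxycycline it read 4.73, 4.62 and 5.19 in vehicle and 5.83, 6.44 and 6.48 in PMA, so PMA and vehicle arrays did not overlap in either comparison. The rise was 1.68 (SE 0.24, adjusted p = 0.000114 by limma) or 3.21-fold without doxycycline, and 1.40 (SE 0.24, adjusted p = 0.000494) or 2.64-fold with it. The other probe set, 214637_at, read 5.82, 5.80 and 5.97 in vehicle and 5.73, 6.02 and 6.18 in PMA, a difference of 0.11 (SE 0.13, adjusted p = 0.629). As with SOCS3, the probe set with the higher mean was the one without a called change.

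JAK2, the kinase bound to the receptors for GM-CSF, growth hormone and erythropoietin, did not pass at any of its 3 probe sets. The one of highest mean, 205842_s_at, read 6.28, 6.29 and 6.15 in vehicle and 6.27, 6.24 and 6.23 in PMA, and 6.28, 6.09 and 6.20 and then 6.30, 6.26 and 5.85 with doxycycline. Its PMA differences were 0.01 (SE 0.12) and -0.05 (SE 0.12). The probe set 1562031_at, dim in all groups, differed by 0.45 (SE 0.21, adjusted p = 0.149 by limma) with doxycycline. Without vehicle with doxycycline replicate 1 this was 0.64 with an adjusted p of 0.0399, and without number 1 in any group it was 0.72 with an adjusted p of 0.0229.

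The STAT genes moved by less than 1 (log2), and in opposite directions. STAT3, the factor activated by interleukin 6, interleukin 10 and oncostatin M, read 8.36, 8.14 and 8.21 in vehicle and 8.80, 8.97 and 8.79 in PMA at 208992_s_at. In vehicle with doxycycline this probe set read 8.45, 8.51 and 8.29, and in PMA with doxycycline 8.79, 8.86 and 8.77. It rose by 0.61 (SE 0.11, adjusted p = 0.000671 by limma) without doxycycline and by 0.39 (SE 0.11, adjusted p = 0.0148) with it. The call with doxycycline was lost without vehicle with doxycycline replicate 3 (0.33, adjusted p = 0.0719) or PMA with doxycycline replicate 2 (0.37, adjusted p = 0.0545). The other 3 STAT3 probe sets differed by 0.22 to 0.36 without doxycycline, none past the test, although the one of highest mean, 208991_at, ran only from 9.15 to 9.66 over all 12 arrays. With doxycycline the dim 243213_at rose by 0.34 (SE 0.11, adjusted p = 0.0402), a call held in 6 of the 12 fits that left out 1 array, and its difference was 0.25 with an adjusted p of 0.241 without number 1. Leaving out vehicle with doxycycline replicate 1 brought 225289_at past the test in both comparisons, at 0.36 (adjusted p = 0.0329) and 0.43 (adjusted p = 0.0238), and with doxycycline it also passed without number 1, at 0.45 (adjusted p = 0.0249). The 0.36 is also the difference of the main fit, because that array lies outside the comparison without doxycycline and enters only the shared spread.

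STAT5A and STAT5B encode a pair of closely related factors that carry GM-CSF, interleukin 3 and growth hormone signals. STAT5B read 8.27, 7.96 and 8.25 in vehicle and 7.86, 7.61 and 7.61 in PMA at 212549_at. With doxycycline it read 8.34, 8.04 and 8.21 in vehicle and 7.58, 7.40 and 7.59 in PMA, so PMA arrays lay below vehicle arrays in both comparisons. It fell by 0.46 (SE 0.13, adjusted p = 0.0158 by limma) without doxycycline and by 0.67 (SE 0.13, adjusted p = 0.00123) with it. The first call was lost without vehicle replicate 1, vehicle replicate 3, PMA replicate 2 or PMA replicate 3, with adjusted p of 0.0602 to 0.0679, while the second held in all 12 such fits. The other 4 STAT5B probe sets differed by -0.24 to -0.02 over both comparisons and did not pass. STAT5A, with 1 probe set, read 8.81, 8.69 and 8.49 in vehicle and 8.34, 8.37 and 8.07 in PMA, a difference of -0.41 (SE 0.14) with an adjusted p of 0.053. With doxycycline it read 8.89, 8.77 and 8.50 in vehicle and 8.40, 8.08 and 8.13 in PMA, and fell by 0.52 (SE 0.14, adjusted p = 0.0139). That call was lost without vehicle with doxycycline replicate 1, PMA with doxycycline replicate 2 or PMA with doxycycline replicate 3, with adjusted p of 0.0531 to 0.0606. Without doxycycline it passed when vehicle replicate 3, vehicle with doxycycline replicate 3 or PMA with doxycycline replicate 1 was left out, with adjusted p of 0.0414 to 0.0455. The arrays with doxycycline lie outside that comparison, so leaving them out kept the difference at -0.41 and changed only its test.

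Read at the probe set of highest mean alone, 3 of the 10 genes passed without doxycycline (PIM1 rose, SOCS2 and STAT5B fell) and 4 with it (STAT5A fell too), beside 29.7% and 30.8% of all genes. SOCS3, OSM and STAT3 were not among them, since their responding probe sets are not the ones of highest mean.

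Doxycycline, which switches on the hairpin, was the second factor of the design. The question here was whether the members' levels differ with doxycycline. In vehicle 0 of 30 probe sets passed limma's adjusted test, and 0 had an unadjusted p under 0.05, beside a background of 0% called and 2.84% at the unadjusted threshold. In PMA 0 of 30 passed and 1 had an unadjusted p under 0.05, beside 0% and 5.93%. The averaged effect and the interaction also had 0 called, beside a background of 0%, and 1 each at the unadjusted threshold, beside 5.90% and 2.83%. In both single-agent comparisons the groups did not overlap at 1 and 2 of 30 probe sets, beside 9.09% and 10.2% of all. They were SOCS2 203373_at in vehicle, with a difference of -0.27 (SE 0.28), and SOCS3 227697_at and STAT5B 212549_at in PMA, the latter with a difference of -0.17 (SE 0.13). Leaving SOCS3 227697_at aside, the differences lay between -0.27 and 0.21 in vehicle and between -0.26 and 0.25 in PMA, with SE of 0.11 to 0.44.

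SOCS3 227697_at was the member with an unadjusted p under 0.05 in PMA, in the average and in the interaction. In PMA it was higher with doxycycline by 0.54, 0.69 and 0.89 in the 3 pairs of the same replicate number, and in vehicle the pairs differed by -0.03, 0.24 and 0. The mean difference in PMA was 0.71 (SE 0.14) or 1.63-fold, with an unadjusted p of 0.000237 and an adjusted p of 0.477 by limma, and 26 of the 54613 probe sets had a p as small. With the replicate number as a block within each agent the SE was 0.11 and the adjusted p was 0.0398, as 1 of 79 probe sets called, a background of 0.145%. No other member passed in that fit, and the background at an unadjusted p under 0.05 rose to 5.46% in vehicle, 11.4% in PMA, 11% for the average and 6.09% for the interaction. SOCS2 203373_at was the other member under that unadjusted threshold with the block. It was lower with doxycycline in all 6 pairs, with differences of -0.11, -0.50 and -0.19 in vehicle and -0.50, -0.12 and -0.15 in PMA. Averaged over the agents its difference was -0.26 (SE 0.08, unadjusted p = 0.00922, adjusted p = 0.274 by limma), and in vehicle -0.27 (SE 0.12, unadjusted p = 0.0456, adjusted p = 0.895). The call of SOCS3 227697_at was lost when any 1 PMA pair was left out, with differences of 0.79, 0.72 and 0.61 and adjusted p of 0.146, 0.0862 and 0.25 without pairs 1, 2 and 3. The interaction, the PMA difference minus the vehicle difference of 0.07 (SE 0.14), was 0.64 (SE 0.20), with an unadjusted p of 0.00743 and an adjusted p of 1, or 0.695 with the block, where 0 members passed beside a background of 0.00183%. The other 3 probe sets of SOCS3 did not share it, with PMA differences of 0.10 (206359_at), 0.16 (206360_s_at) and -0.18 (214105_at). In pairs 1, 2 and 3 the 3′ minus 5′ signal of ACTB was 2.72, 1.32 and 1.64 on the arrays with doxycycline and 2.39, 1.12 and 1.01 on those without, and its part in the SOCS3 difference was not tested. This comparison and that of PMA without doxycycline share the same 3 PMA arrays.

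**Figure D3:**
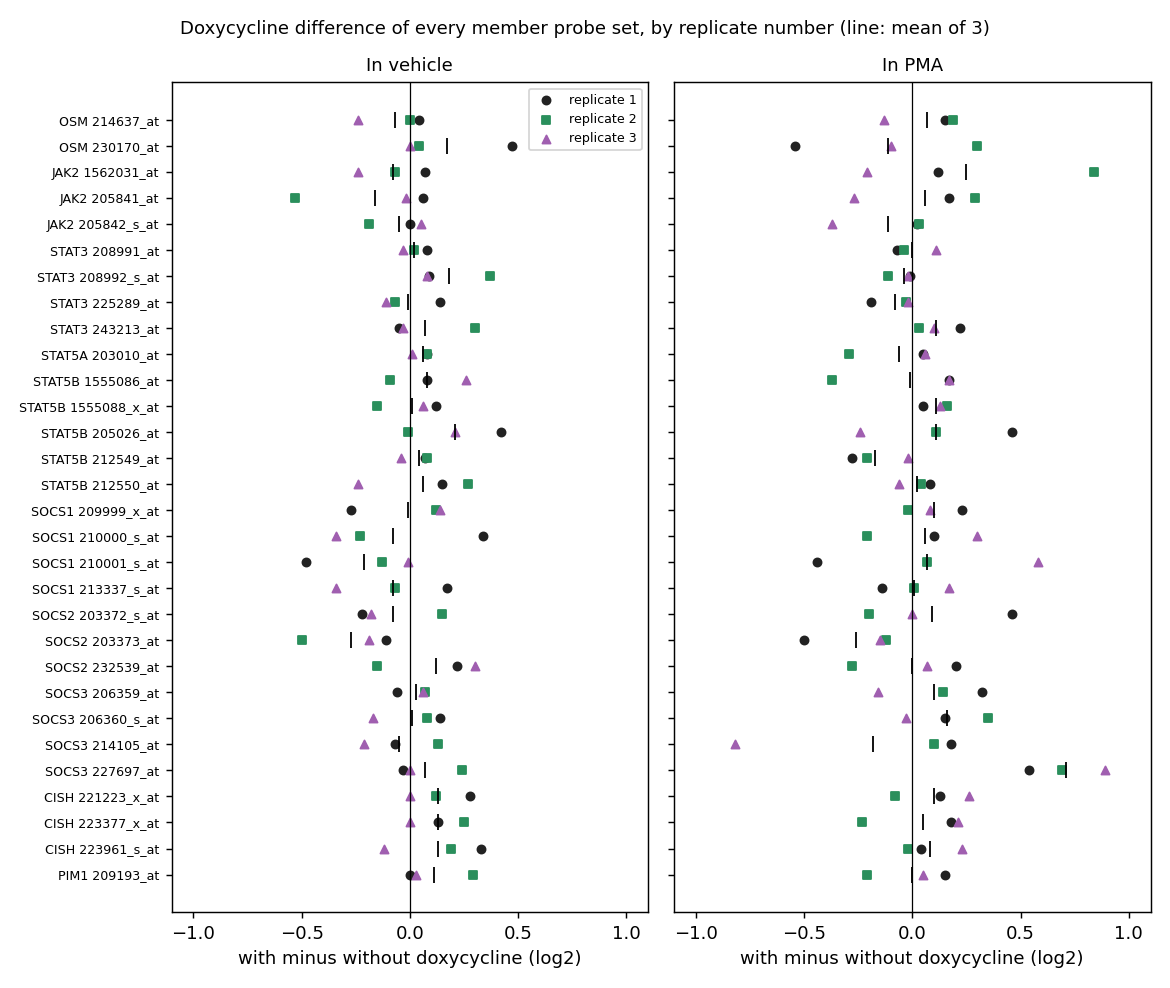
Difference between arrays with and without doxycycline (log2, horizontal axis) for each of the 30 probe sets, in vehicle and in PMA; symbols are the 3 pairs of the same replicate number and the short line is their mean. In PMA all 3 pairs of SOCS3 227697_at lie between 0.54 and 0.89, while the means of the other 29 probe sets lie between -0.26 and 0.25.

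Around these members, 97 of 105 further genes of the pathway were measured and read at their probe set of highest mean. Where such a gene has several probe sets, the others are not given here. They may differ from it, as those of SOCS3 and OSM did. Without doxycycline PMA raised 36 and lowered 6 of them, 37.1% and 6.19%, beside 11.9% and 17.8% of all genes. With doxycycline 37 rose and 7 fell, 38.1% and 7.22%, beside 12.3% and 18.6%. The median difference of the list was 0.18 without doxycycline, against 0.01 over all genes.

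Of the cytokine receptors, 16 of 33 rose without doxycycline (48.5%) and 18 with it (54.5%), with 0 falls in either. IL7R, the interleukin 7 receptor, rose by 4.09 (SE 0.34, adjusted p = 8.81e-07 by limma). Its vehicle mean of 4.06 ± 0.53 (SD) lay below the overall median of 5.19, so the size of this rise is less sure than its direction. CSF2RB, the beta chain shared by the GM-CSF, interleukin 3 and interleukin 5 receptors, rose by 1.81 (SE 0.27, adjusted p = 0.000161). Of 6 kinases and factors 4 rose (66.7%) and 0 fell in each comparison, with JAK1 up by 1.07 (SE 0.12, adjusted p = 1.39e-05) and IRF9, an interferon regulatory factor, up by 2.29 (SE 0.50, adjusted p = 0.00325). Among 24 ligands 3 rose (12.5%, near the 11.9% of all genes) and 1 fell (4.17%, beside 17.8%), with IL10 up by 1.24 (SE 0.22), LIF up by 1.19 (SE 0.22) and IL12A down, at a difference of -0.54 (SE 0.13). The vehicle means of IL10 (4.36), LIF (5.08) and IL12A (5.08) lay below the overall median, and IL12A stayed below it in every group. With doxycycline 2 ligands rose (8.33%, beside 12.3%) and 2 fell (8.33%, beside 18.6%).

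The 15 other inhibitors moved both ways, 3 up and 3 down without doxycycline and 3 up and 2 down with it. PTPN6, the phosphatase SHP-1, rose by 0.76 (SE 0.12, adjusted p = 0.000278 by limma), and CBLB, a ubiquitin ligase, by 0.67 (SE 0.21, adjusted p = 0.0341). PIAS3, an inhibitor of STAT3, fell by 0.46 (SE 0.16, adjusted p = 0.0469) and PIAS2 fell by 0.42 (SE 0.13, adjusted p = 0.0353), the latter not past the test with doxycycline at -0.35 (adjusted p = 0.0766). Leaving out 1 array kept the call of PIAS3 in 4 of 12 fits, and those of PIAS2 and CBLB in 8 each. Of 19 STAT target genes 10 rose (52.6%) and 2 fell (10.5%) without doxycycline, and 10 rose (52.6%) and 3 fell (15.8%) with it. CDKN1A, a cell cycle inhibitor, rose by 4.59 (SE 0.25) and the AP-1 gene FOS by 3.37 (SE 0.38), while MYC and the cyclin gene CCND2 fell by 1.54 (SE 0.24) and 1.28 (SE 0.17). Other inputs than STATs also drive these genes. No gene of the list passed in a doxycycline comparison or the interaction, and at an unadjusted p under 0.05 there were 2 of 97 in vehicle, 6 in PMA, 6 in the average and 3 in the interaction, beside 2.4%, 5.84%, 5.79% and 2.43% of all genes.

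**Figure D4:**
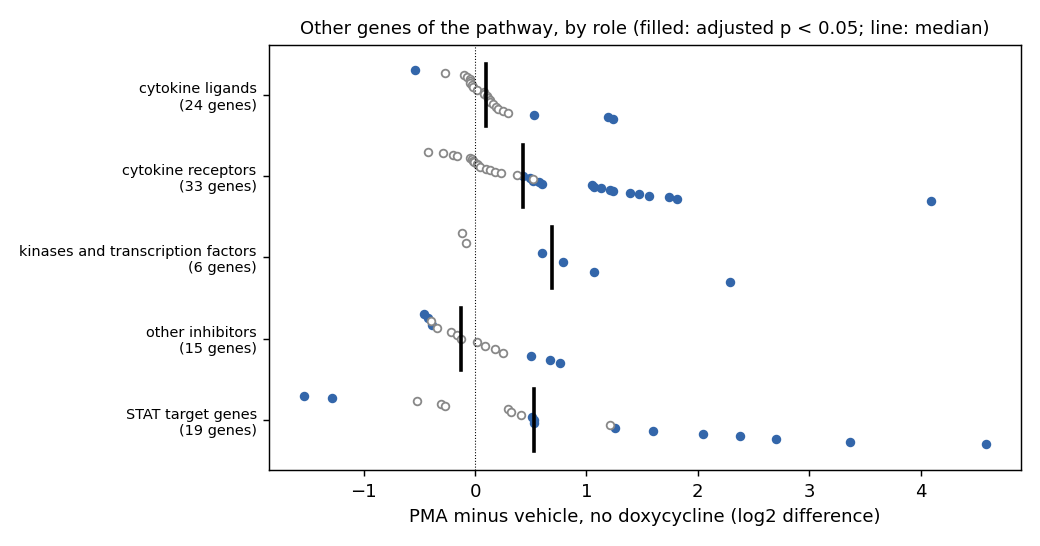
Log2 difference between PMA and vehicle without doxycycline (horizontal axis) for 97 further genes of the pathway, 1 point per gene, grouped by role; filled points passed limma's test at an adjusted p under 0.05 and vertical lines are medians. Receptors have a median of 0.43 with 16 filled points on the right and 0 on the left, and the other inhibitors a median of -0.13 with 3 on each side.

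For the 3 members with the largest PMA difference at the probe set of highest mean, the most similar genes were found by the root mean square difference over the 12 arrays, each gene centred on its vehicle mean. CTSH, FMNL3 and FTH1P5 were nearest to PIM1, at 0.11, 0.13 and 0.14 (log2). TMEM273, GCA and SPATA13 were nearest to SOCS2, at 0.14, 0.18 and 0.18. JKAMP, BMP1 and ANXA2P2 were nearest to CISH, at 0.15, 0.16 and 0.17. FTH1P5 and ANXA2P2 were read at probe sets with the letter x, whose probes can also match other transcripts.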

How the data were processed

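Each of the 12 samples was 100 ng of total RNA on 1 Affymetrix array of the HG-U133 Plus 2.0 design. The deposited log2 values come from RMA, according to the submitters' processing notes, and neither its version nor its software is given in the sources used here. RMA usually sets all arrays to a common distribution, so differences are relative to the other probe sets, and it compresses dim signals. The values were used without further scaling. Of 54675 probe sets 62 controls were left out, 41091 had 1 gene, 1801 several and 11721 none in the annotation used here. Symbols were updated through Entrez numbers for 41037 probe sets, and 54 kept theirs. There were no missing values and no identical arrays.

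Group means were fitted over all 12 arrays and 54613 probe sets in limma 3.58.1 (lmFit, then eBayes; R 4.3.3), where 8 residual degrees of freedom per probe set met a prior of 5.6. Tests were two-sided, with p-values adjusted over all probe sets by Benjamini-Hochberg and a threshold of 0.05. The alternatives were blocks for the replicate number, left-out arrays, arrays numbered 2 and 3 alone, separate fits, cyclic loess, a filter on dim probe sets, a mean-variance trend and fits on 1 value per gene. The members, gene lists and tests were chosen with earlier results of these data known, and the fit without single PMA pairs was added after seeing the data. All 30 member probe sets are accounted for. In each role of the pathway list up to 2 called genes with the largest rise and up to 2 with the largest fall were named.

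Same-numbered arrays with and without doxycycline deviated together from their group means, with correlations in the order of the numbers of 0.53, 0.22 and 0.31 (vehicle) and 0.56, 0.22 and 0.31 (PMA). They were taken as paired only in the fit with the replicate number as a block within each agent, and the main fit was unpaired. Unlike numbers reached at most 0.17 (vehicle) and 0.31 (PMA), so numbers 2 and 3 in PMA are less clearly matched. Between vehicle and PMA the correlations were 0.19, -0.01 and 0.21, with unlike numbers at most 0.08. With doxycycline they were 0.24, 0.09 and 0.12, with unlike numbers at most 0.13. Numbers 1 and 3 without doxycycline and number 1 with it thus exceeded the unlike numbers. The main fit did not pair these arrays, and the block over all numbers was an alternative. Precision is limited by the number of arrays, 3 in a group. On simulated data for the doxycycline comparison in PMA over 54613 probe sets the procedure called 20.9% of changes of 0.5 (log2), 83.6% of changes of 1 and 100% of changes of 2, with 9 false calls. In that simulation 67, 67 and 66 probe sets carried these changes, and the noise was normal and independent between arrays. Having many changed probe sets loosens the Benjamini-Hochberg cut. The real comparison called 0 probe sets, so changes of these sizes can be missed more often there.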

Additional observations from a re-analysis of the deposited data

Results flagged for a closer look

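STAT3 208992_s_at was set apart because its pairs with and without doxycycline differed in opposite directions in the agents. The 3 same-numbered pairs were higher with doxycycline in vehicle, by 0.09, 0.37 and 0.08 (log2), and all lower in PMA, at -0.01, -0.11 and -0.02. The difference between the agents was -0.22 (SE 0.15), with an unadjusted p of 0.166 and an adjusted p of 1 by limma, so it was not shown to differ. The mean difference in PMA, -0.04 (SE 0.11), was smaller than its SE.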

How the results depend on the processing

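Both PMA rises of PIM1, OSM 230170_at, SOCS3 227697_at and SOCS3 206359_at and both falls of SOCS2 203373_at passed under every alternative that could be fitted for them. So did the rise of STAT3 208992_s_at without doxycycline and the fall of STAT5B 212549_at with it. The dim filter removed SOCS3 206359_at. The fits on 1 value per gene did not test OSM 230170_at, STAT3 208992_s_at or these SOCS3 probe sets singly, so fewer alternatives cover them than PIM1. The other calls were lost when certain single arrays were left out, as given above. Cyclic loess also ended that of STAT5A with doxycycline (-0.41, adjusted p = 0.061). Separate fits ended that of STAT3 243213_at (0.34, adjusted p = 0.0959), and averaging all probe sets per gene that of STAT5B without doxycycline (-0.18, adjusted p = 0.119; -0.25 and still past the test with it). No called difference changed direction. Leaving out 1 array gave 7 to 12 member probe sets called without doxycycline and 6 to 13 with it, against 8 and 9, and 2 to 5 and 3 to 5 genes, against 3 and 4. With the replicate block over all numbers 13 probe sets and 5 genes were called without doxycycline, and 13 and 5 with it; the block brought in the 3 CISH probe sets in both comparisons, STAT5A (adjusted p = 0.0104) and STAT3 225289_at (adjusted p = 0.0274) without doxycycline and SOCS2 203372_s_at (adjusted p = 0.000772) with it. Of all probe sets 15152 and 15558 were called, 27.7% and 28.5%, beside 43.3% of the members in each. Arrays numbered 2 and 3 alone gave 15 probe sets with doxycycline, beside 26.6% of all. Without dim probe sets 5 genes were called without doxycycline, with 1 probe set per gene 5, and with the mean of the probe sets of a gene 7 without and 7 with doxycycline. For the gene counts of these alternatives, and for the fits that left out 1 array, the share over all genes or probe sets is not given here. No gain of the members can therefore be read from them. For doxycycline in PMA the replicate block within each agent gave 1 member probe set, SOCS3 227697_at, where the unpaired fit had 0, and 0 once a PMA pair was left out. In the doxycycline comparisons and the interaction all other alternatives called 0 members. Changes of 0.5 (log2) were called in 20.9% of simulated cases, so member differences of that size can be missed.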
